A study of Homo sapiens with 6 samples.

Results

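Transcripts of 8 mouse genes for angiogenic ligands and their receptors were followed in A549 tumours grown in nude mice: the ligands Vegfa, Vegfb, Vegfc, Pgf, Angpt1 and Angpt2, the co-receptor Nrp1 and the receptor Flt4. They were taken by Ensembl gene ID from a table of 77134 mouse genes, and all 8 were among the 12637 genes that passed the filter on low counts. The tested tumours (n = 3) grew from A549 cells, a human lung adenocarcinoma line, stably infected with a lentivirus that expresses HIF1A-AS3 from a CMV promoter together with EGFP and a neomycin resistance gene. Control tumours (n = 3) grew from A549 cells carrying the same lentiviral vector without HIF1A-AS3. HIF1A-AS3 is transcribed antisense to human HIF1A, the gene of the oxygen-regulated subunit of the hypoxia-inducible transcription factor HIF-1. All tumours were subcutaneous, in BALB/c nude mice, hosts without a thymus that still have macrophages, natural killer cells, fibroblasts and vessels. The labels do not say whether each tumour came from its own mouse or how many cell clones each line held, so p-values cover only the spread among these 6 tumours.

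Vessels in such a tumour are built by the host. Vegfa is the main signal for the growth and permeability of blood vessels, Pgf and Vegfb act on the receptor Flt1, and Vegfc acts on Flt4, a receptor best known from lymphatic endothelium. Nrp1 is a co-receptor for Vegfa and for class 3 semaphorins, found on endothelial cells and also on macrophages and other cells. Angpt1 activates the endothelial receptor Tek and steadies vessels, while Angpt2, released mostly by endothelial cells, can block that action. Vegfa is a classical HIF-1 target, and Pgf and Angpt2 are also raised by low oxygen in many cells.

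The values are estimated counts per mouse gene, so they describe host cells, together with human reads wherever these were assigned to a mouse gene. HIF1A-AS3 itself, a human RNA, was not analysed here, so its overexpression could not be checked. A549 cells can themselves make several of these ligands, and the part of human RNA in the values was not tested. In bulk tumour RNA, fewer cells of a type and less RNA per cell cannot be told apart. Mouse endothelial, lymphatic and pericyte markers were not analysed here because the sources used give no names for the other mouse IDs, so the vessel content of each tumour was not measured. Library totals lay between 4167784 and 4769157 estimated counts. Levels are given as CPM, counts scaled to a common library size after TMM scaling, which corrects for a few genes taking up many counts. The TMM factor was 0.742 in overexpression tumour 1 and 1.02 to 1.10 in the other 5, so levels of that tumour depend most on the scaling. CPM is not corrected for transcript length, and levels are therefore compared between tumours and not between genes.

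None of the 8 genes passed the threshold between overexpression and control tumours (edgeR quasi-likelihood test, Benjamini-Hochberg adjusted p below 0.05 over 12637 genes), where 0.0158% of all genes did. At an unadjusted p below 0.05 in edgeR there was 1 of the 8, Pgf, against 6.29% of all genes tested. DESeq2 on the same genes called 0 of the 8 after adjustment (0.222% of all genes) and had 1 at an unadjusted p below 0.05 (6.89% of all genes). With limma-voom these counts were 0 (0.0554% of all genes) and 2 (Pgf and Nrp1, against 5.59% of all genes). The fitted log2 fold change was positive for 5 genes (Vegfa, Vegfb, Vegfc, Pgf and Angpt1) and negative for 3 (Angpt2, Nrp1 and Flt4), against 50.6% positive over all genes. The median log2 fold change was 0.33 for the 8 genes and 0.01 for all genes tested.

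**Figure D1:**
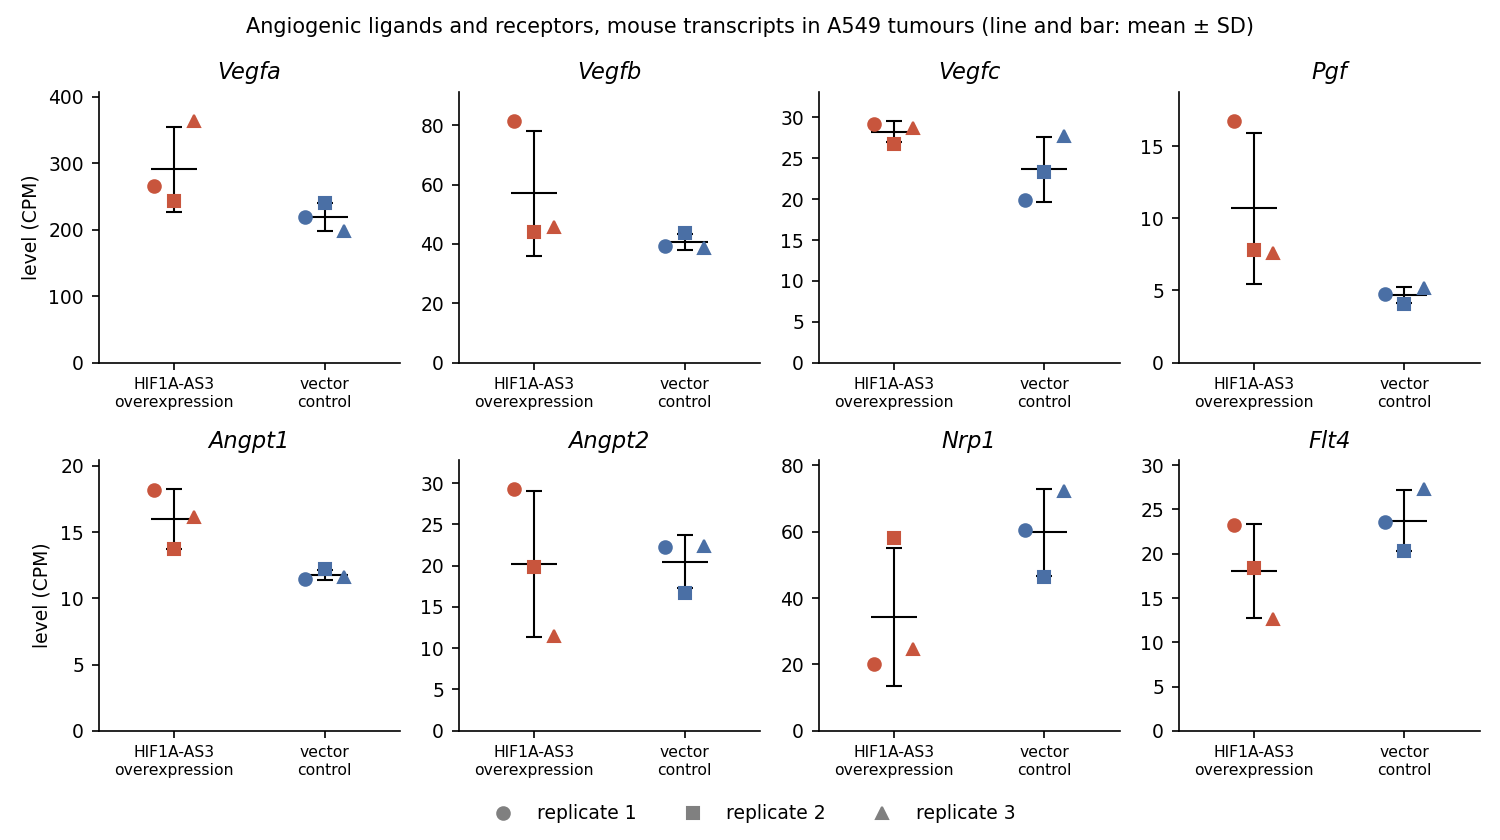
Level of each gene in CPM (vertical axis, from 0) in HIF1A-AS3 overexpression tumours (red) and vector control tumours (blue). Points are single tumours with the replicate number as symbol, and the line and bar are the mean ± SD (n = 3). All overexpression points lie above all control points for Vegfa, Vegfb, Pgf and Angpt1, and Nrp1 is low in overexpression tumours 1 and 3 but not in tumour 2.

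Among the ligands, Pgf (placental growth factor, ENSMUSG00000004791.8) had the largest fold difference. Its level was 16.8, 7.80 and 7.59 CPM in overexpression tumours 1, 2 and 3, against 4.76, 4.07 and 5.16 CPM in control tumours 1, 2 and 3. The groups did not overlap, and overexpression tumour 1 stood more than 2-fold above the other 2 of its group. These levels rest on few reads: 59, 37 and 32.9 estimated counts in overexpression tumours and 22, 18 and 24 in controls. Counting error alone gave exact 95% Poisson intervals of 5.22 to 10.7 CPM for overexpression tumour 3 and 3.30 to 7.67 CPM for control tumour 3, which overlap. The means were 10.7 ± 5.23 CPM in overexpression tumours and 4.66 ± 0.549 CPM in controls (SD, n = 3 each). The log2 fold change of 1.18 (standard error 0.38) amounts to 2.27-fold, with an unadjusted 95% interval of 1.24-fold to 4.16-fold, an unadjusted p of 0.014 and an edgeR adjusted p of 0.70. Without overexpression tumour 1 the log2 fold change was 0.69, at an unadjusted p of 0.048 and an edgeR adjusted p of 1.00.

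Vegfa (ENSMUSG00000023951.19) measured 266, 243 and 364 CPM in overexpression tumours 1, 2 and 3, against 219, 240 and 198 CPM in control tumours 1, 2 and 3. The lowest overexpression tumour and the highest control tumour were nearly level, and overexpression tumour 3 was the highest of the 6. The means were 291 ± 64.1 CPM in overexpression tumours and 219 ± 21.2 CPM in controls (SD, n = 3 each). The fold difference of 1.33 had a 95% interval of 0.946 to 1.86 and an edgeR adjusted p of 0.70. Leaving out overexpression tumour 3 lowered the log2 fold change of 0.41 to 0.21.

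Vegfb (ENSMUSG00000024962.14), a ligand of Flt1 linked to fatty acid handling and to the survival of vessels more than to their growth, had 81.5, 44.0 and 45.8 CPM in overexpression tumours 1, 2 and 3. Control tumours 1, 2 and 3 had 39.4, 43.7 and 38.7 CPM. Overexpression tumour 1 alone stood well above the rest, while tumours 2 and 3 lay just above the highest control. The means were 57.1 ± 21.2 CPM in overexpression tumours and 40.6 ± 2.70 CPM in controls (SD, n = 3 each). The log2 fold change of 0.49 (standard error 0.26) had an adjusted p of 0.70 in edgeR, and without overexpression tumour 1 it was 0.11.

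Vegfc (ENSMUSG00000031520.7), the ligand that drives growth of lymphatic vessels, was at 29.3, 26.8 and 28.8 CPM in overexpression tumours 1, 2 and 3, against 19.9, 23.3 and 27.7 CPM in control tumours 1, 2 and 3. The overexpression tumours were close to each other and the groups overlapped. The means were 28.3 ± 1.32 CPM in overexpression tumours and 23.6 ± 3.92 CPM in controls (SD, n = 3 each). The 1.19-fold difference had a 95% interval of 0.881-fold to 1.62-fold and an edgeR adjusted p of 0.75. Vegfc was the only one of the 8 genes that varied less among overexpression tumours than among controls, with an SD of log2 CPM of 0.067 against 0.23. Counting error limits this: the Poisson interval of overexpression tumour 1 alone, 23.9 to 35.5 CPM, was wider than the spread of the 3 overexpression levels. Its log2 fold change of 0.26 was 0.15 without control tumour 1, 0.39 without control tumour 3 and 0.03 when scaled by library totals only.

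The angiopoietins, the ligands of Tek, did not follow each other. Angpt1 (ENSMUSG00000022309.10) was at 18.2, 13.7 and 16.1 CPM in overexpression tumours 1, 2 and 3, and at 11.5, 12.2 and 11.6 CPM in control tumours 1, 2 and 3. All overexpression tumours were above all controls, and the controls were nearly level. The means were 16.0 ± 2.24 CPM in overexpression tumours and 11.8 ± 0.401 CPM in controls (SD, n = 3 each), a 1.36-fold difference with a 95% interval of 0.972-fold to 1.89-fold and an edgeR adjusted p of 0.70. The separation is within counting error for single tumours: overexpression tumour 2, with 65 estimated counts, had a Poisson interval of 10.6 to 17.5 CPM, and control tumour 2, with 54, had one of 9.18 to 15.9 CPM.

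Angpt2 (ENSMUSG00000031465.7) was at 29.3, 19.8 and 11.5 CPM in overexpression tumours 1, 2 and 3, against 22.3, 16.7 and 22.3 CPM in control tumours 1, 2 and 3. Overexpression tumours held both the highest and the lowest level of the 6, on either side of the controls. The means of 20.2 ± 8.88 CPM in overexpression tumours and 20.5 ± 3.22 CPM in controls (SD, n = 3 each) gave a log2 fold change of -0.03. Its 95% interval ran from -0.80 to 0.75 and the edgeR adjusted p was 0.98. The fold change took no stable sign: it was 0.26 without overexpression tumour 3 and -0.42 without overexpression tumour 1.

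Since Angpt1 and Angpt2 compete for the same receptor, their counts were also set against each other within each tumour, which needs no scaling between libraries. The ratio of Angpt2 to Angpt1 counts was 1.61, 1.45 and 0.714 in overexpression tumours 1, 2 and 3, against 1.94, 1.37 and 1.93 in control tumours 1, 2 and 3. Only overexpression tumour 3 had fewer Angpt2 than Angpt1 counts, and the groups overlapped. On the log2 scale the ratio was 0.25 ± 0.64 in overexpression tumours and 0.79 ± 0.29 in controls (SD, n = 3 each), a difference of -0.54 (exact permutation test, two-sided, p = 0.3). Without overexpression tumour 3 the difference was -0.18.

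**Figure D2:**
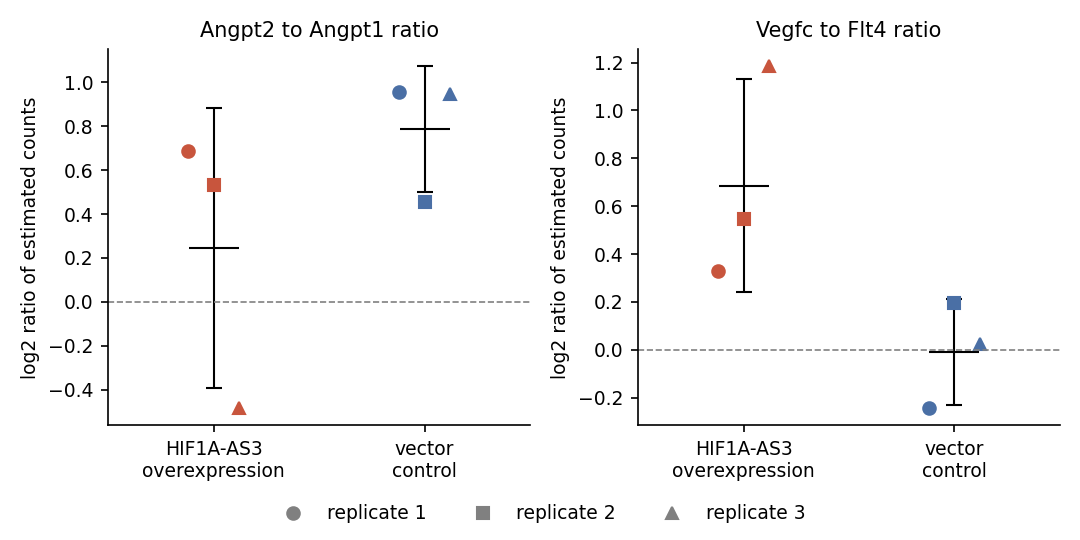
Log2 ratio of estimated counts (vertical axis) of Angpt2 to Angpt1 and of Vegfc to Flt4 in each overexpression (red) and control (blue) tumour, with the mean ± SD (n = 3). The Angpt2 to Angpt1 ratio of overexpression tumour 3 lies apart at -0.49, and the Vegfc to Flt4 ratios of the 3 overexpression tumours lie above those of the 3 controls.

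On the receptor side, Nrp1 (ENSMUSG00000025810.10) differed most between tumours of a group. It was at 20.2, 58.2 and 24.6 CPM in overexpression tumours 1, 2 and 3, against 60.5, 46.4 and 72.4 CPM in control tumours 1, 2 and 3. Overexpression tumours 1 and 3 were below all controls, and overexpression tumour 2 lay inside the range of the controls. These gaps exceeded counting error, since the Poisson intervals were 15.7 to 25.4 CPM for overexpression tumour 1 and 20.2 to 29.7 CPM for overexpression tumour 3, against 40.2 to 53.2 CPM for control tumour 2, the lowest control. The means were 34.3 ± 20.8 CPM in overexpression tumours and 59.8 ± 13.0 CPM in controls (SD, n = 3 each). The log2 fold change of -0.79 (standard error 0.40) had a 95% interval of -1.71 to 0.13 and an edgeR adjusted p of 0.70. Without overexpression tumour 1 the log2 fold change was -0.56, and without overexpression tumour 3 it was -0.61. Their unadjusted p values in edgeR were 0.19 and 0.22. Leaving out overexpression tumour 2, the one inside the control range, gave -1.41, at an unadjusted p of 0.00064 and an edgeR adjusted p of 0.10. In that fit 5 of the 8 genes had an unadjusted p below 0.05 (Vegfa, Vegfb, Pgf, Angpt1 and Nrp1), against 20.5% of all genes, and 0 passed after adjustment (0.108% of all genes).

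Flt4 (VEGF receptor 3, ENSMUSG00000020357.4) was at 23.3, 18.3 and 12.7 CPM in overexpression tumours 1, 2 and 3, against 23.6, 20.4 and 27.3 CPM in control tumours 1, 2 and 3. Overexpression tumours 2 and 3 were below all controls, and overexpression tumour 1 was within their range. The means were 18.1 ± 5.32 CPM in overexpression tumours and 23.7 ± 3.47 CPM in controls (SD, n = 3 each). Its log2 fold change of -0.40 had a 95% interval of -0.998 to 0.205 and an edgeR adjusted p of 0.72. It was -0.20 without overexpression tumour 3 (edgeR unadjusted p of 0.42) and -0.65 without overexpression tumour 1 (edgeR unadjusted p of 0.038). Both had adjusted p values above the threshold. Scaled by library totals only it was -0.66, at an unadjusted p of 0.030 and an edgeR adjusted p of 0.73.

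The ratio of Vegfc to Flt4 counts, the ligand set against its receptor, was 1.26, 1.46 and 2.27 in overexpression tumours 1, 2 and 3. In control tumours 1, 2 and 3 it was 0.844, 1.14 and 1.02. The groups did not overlap, though overexpression tumour 1 (103 Vegfc and 82 Flt4 counts) and control tumour 2 (103 and 90) were close. Between these tumours the Poisson intervals overlapped for Flt4 (18.5 to 28.9 and 16.4 to 25.0 CPM). They also overlapped for Vegfc (23.9 to 35.5 and 19.0 to 28.3 CPM). Counting error of the ratio itself was not computed, so the order of these tumours cannot be taken as measured. How often a ratio separates the groups over all gene pairs was not tested. On the log2 scale the ratio was 0.69 ± 0.44 in overexpression tumours and -0.01 ± 0.22 in controls (SD, n = 3 each). The difference of 0.70 gave p = 0.1 in a two-sided exact permutation test, the smallest p that 3 against 3 tumours allow. Without overexpression tumour 3 the difference was 0.45.

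**Figure D3:**
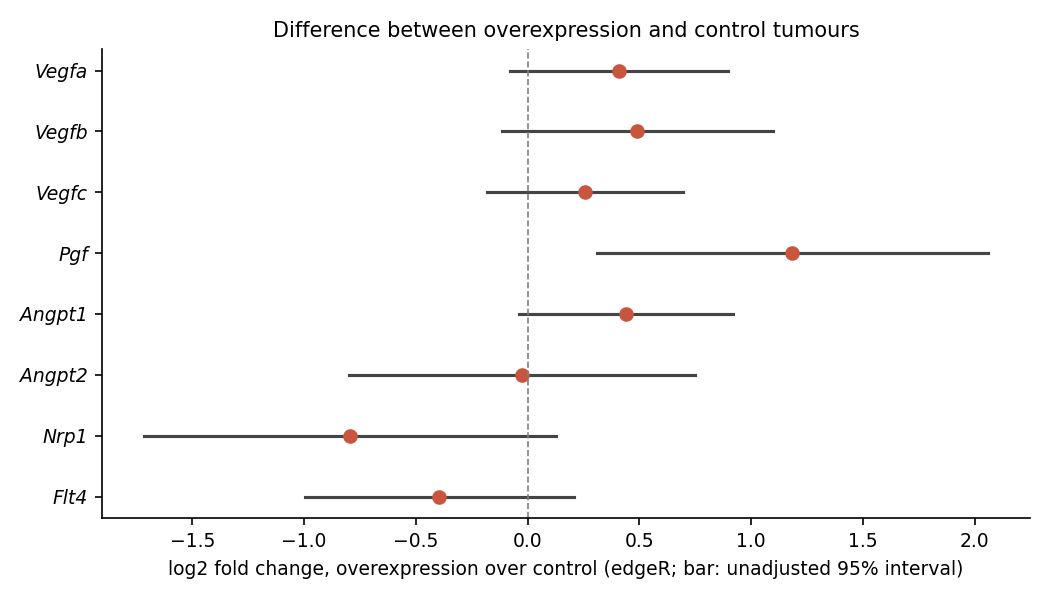
Log2 fold change of each gene, overexpression over control tumours (horizontal axis), with its unadjusted 95% interval from edgeR (n = 3 each). Only the interval of Pgf, 0.31 to 2.06, leaves out 0, and none of the 8 genes passed the adjusted threshold.

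The levels of 4 of the 8 genes did not overlap between groups (Vegfa, Vegfb, Pgf and Angpt1), all higher in overexpression tumours. Over all genes tested, 6.79% had all overexpression tumours above all controls and 13.2% had groups that did not overlap in either direction. With CPM scaled by library totals only, which set the median log2 fold change of the whole table at -0.21, Pgf and Angpt1 still lay above all controls (2.1% of all genes did). Vegfa and Vegfb then overlapped, and Flt4 lay below all controls, as did 12.8% of all genes. The 5 positive fold changes kept their sign under that scaling, at 0.20 for Vegfa, 0.21 for Vegfb, 0.03 for Vegfc, 0.89 for Pgf and 0.20 for Angpt1.

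The 3 overexpression tumours shared some of these differences and not others. On the log2 CPM scale, relative to the mean of the controls, Pgf was at 1.76, 0.70 and 0.66 and Angpt1 at 0.61, 0.21 and 0.44 in overexpression tumours 1, 2 and 3. Vegfa, Vegfb and Vegfc were also above the control mean in all 3, and Nrp1 and Flt4 were below it in all 3. Some of these differences were small. Nrp1 in overexpression tumour 2 and Flt4 in overexpression tumour 1 were both at -0.02. Vegfc in overexpression tumour 2 (0.19) was below control tumour 3 (0.24). How many of all genes lay on the same side in all 3 was not tested. Beside these, overexpression tumour 1 had a high Vegfb (1.00), a high Angpt2 (0.52) and a low Nrp1 (-1.52). Overexpression tumour 3 had a high Vegfa (0.73) and low Angpt2 (-0.79), Flt4 (-0.87) and Nrp1 (-1.24). Overexpression tumour 2 departed least from the controls, with Pgf (0.70) and Flt4 (-0.35) its largest differences. The mean absolute difference over the 8 genes was 0.75, 0.22 and 0.65 in overexpression tumours 1, 2 and 3. Over all genes tested it was 0.63, 0.33 and 0.47 in the same tumours, so the order of the tumours was that of the whole table.

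**Figure D4:**
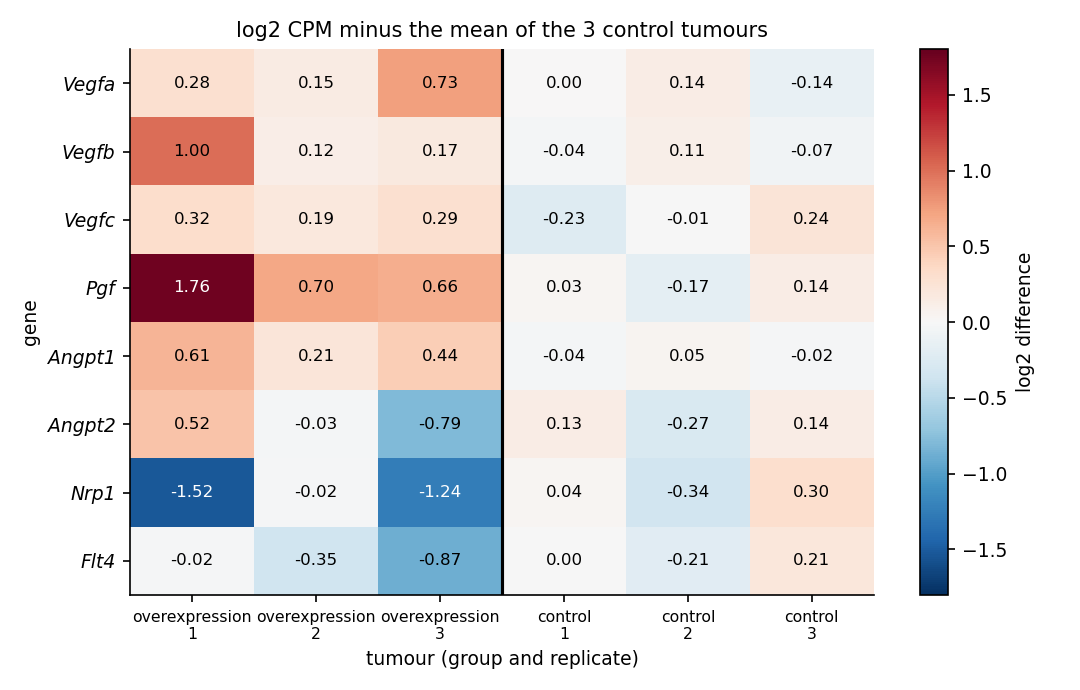
Log2 CPM of each gene (rows) in each tumour (columns) minus the mean of the 3 control tumours, overexpression tumours left of the line. Red is higher and blue lower than the control mean. Angpt2 is 0.52 in overexpression tumour 1 and -0.79 in overexpression tumour 3, and Nrp1 is near 0 in overexpression tumour 2 alone of its group.

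Spread within groups was wider in overexpression tumours for 7 of the 8 genes, as it was for 76.4% of all genes tested. The median SD of log2 CPM over the 8 genes was 0.46 in overexpression tumours and 0.18 in controls, against 0.37 in overexpression tumours and 0.20 in controls over all genes. Nrp1 reached 0.80 in overexpression tumours and 0.32 in controls, the largest of the 8 in each group. The levels of Angpt1 were the most even among controls, with an SD of 0.047. They rest on 53, 54 and 54 estimated counts. The Poisson interval of control tumour 1, 8.58 to 15.0 CPM, was far wider than their spread, so this evenness is not a measured trait of the gene.

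Some of the 8 genes went together from tumour to tumour. As a description over 6 tumours, which share their library scaling, Pearson's r of log2 CPM was 0.91 between Pgf and Angpt1. It was also 0.91 between Vegfb and Pgf, 0.86 between Vegfb and Angpt1 and 0.85 between Angpt2 and Flt4. With each group's mean removed these became 0.71, 0.90, 0.86 and 0.98. The opposite order was found for Nrp1 and Angpt1, with an r of -0.93 and -0.94 with group means removed, and for Vegfa and Flt4, with -0.91 and -0.85. The 6 tumours include overexpression tumours 1 and 3, which stood farthest from the controls in these genes and over all genes tested. These pairs have the strongest r among the 8 genes, and how often such values occur among all gene pairs was not tested.

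**Figure D5:**
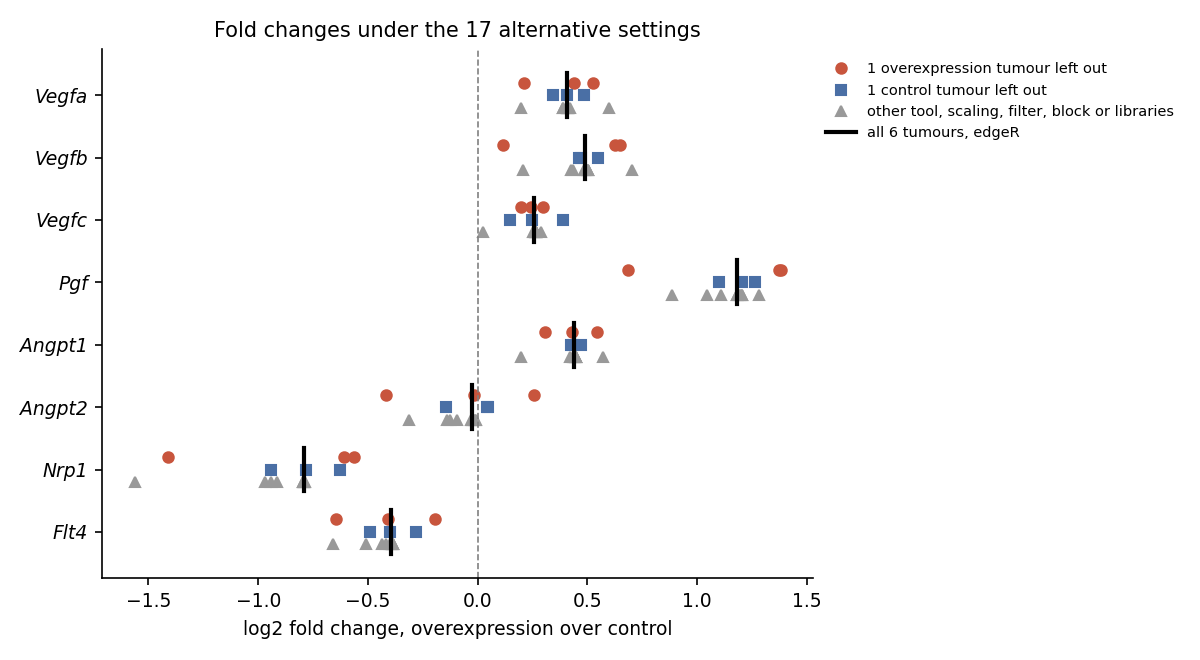
Log2 fold change of each gene, overexpression over control tumours (horizontal axis), with all 6 tumours in edgeR (black line) and under 17 alternatives: 1 overexpression tumour left out (red), 1 control tumour left out (blue), and another tool, scaling, filter, block or set of libraries (grey). Only Angpt2 takes both signs. Nrp1 is at -1.41 with overexpression tumour 2 left out and at -0.56 with overexpression tumour 1 left out. With overexpression tumour 1 left out Pgf is at 0.69.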

How the data were processed

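The authors deposited a table of estimated counts per mouse gene, 1 column per tumour and unnormalized, per the file header. Its name points to salmon. The submitters' processing notes name the mouse build mm10 and the tools DESeq2, edgeR, featureCounts 2.0.6, HISAT2 2.2.1 and Trimmomatic 0.39, with no role for any; neither strand handling nor annotation release is stated in them.

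Gene names came from the definition of the 8-gene set. The members, lists and tests were chosen with earlier results of these data known. The named genes were all 8, whatever their values. Pathway and cell type lists by symbol, coordinates and sequences need a mouse annotation and were not analysed here.

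Counts were rounded, filtered with filterByExpr (99.5% of counts kept), scaled by TMM and fitted in R 4.3.3 with edgeR 4.0.16 (robust quasi-likelihood, group only, Benjamini-Hochberg). Standard errors are the absolute log2 fold change over the square root of F. Log2 CPM used a prior count of 2. Per-tumour ratios used an exact permutation test over 20 assignments. Alternatives used DESeq2 1.42.0, limma-voom (limma 3.58.1), other scalings and filters, a block and left-out libraries. In simulated data with 12313 genes, edgeR recovered 78.8% of 4-fold and 16.2% of 2-fold changes, and 11 of 105 calls were false. The simulation gave both groups the same spread per gene, while 76.4% of all genes tested varied more in overexpression tumours. These rates may therefore not hold for the tumours. Even in the closest pair of libraries, squared differences averaged 3.88 times their sampling variance, so no library was a copy of another. This measure cannot tell whether any libraries came from the same tumour. By the same measure overexpression tumour 2 was at 8.47, 15.8 and 7.55 from control tumours 1, 2 and 3. It was at 81.0 and 28.3 from overexpression tumours 1 and 3, while pairs of controls ran from 3.88 to 13.0. A count of 0 would allow 0.632 to 0.852 CPM (3 counts). Intervals and this limit cover counting error only.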

Additional observations from a re-analysis of the deposited data

How the results depend on the processing

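None of the 8 genes passed the adjusted threshold in any of 17 alternatives, of which DESeq2 on edgeR's filtered genes and leaving out both libraries numbered 2 were chosen after seeing the data. The lowest adjusted p was 0.076, for Nrp1 without both libraries numbered 2 (log2 fold change -1.56). Pgf had an unadjusted p below 0.05 in all 17, with adjusted p values from 0.14 to 1.00 and log2 fold changes from 0.69 to 1.38. The settings refit the same tumours or some of them, so they are not independent. How many of all genes stayed below 0.05 in every setting was not tested. The number with a positive fold change was 5 or 6 throughout. The sign was kept in all 17 for every gene but Angpt2, which ran from -0.42 to 0.26 with 1 library left out and was positive without overexpression replicate 3 (0.26), without control replicate 1 (0.04) and without control replicate 3 (0.05).

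Over all genes edgeR called 2. Without both libraries numbered 2 it called 25, without the filter on low counts 14, after scaling by totals alone 4 and under a replicate block 0. Limma-voom called 7 genes and DESeq2 called 28 on edgeR's filtered genes or 29 on all rows. Leaving out single libraries gave 0 to 14. The labels do not say that replicate numbers pair tumours, and deviations from group means across genes correlated at -0.09, -0.34 and -0.10 between tumours numbered 1, 2 and 3. With the replicate block Pgf was at 1.11 and Nrp1 at -0.94, both at an adjusted p of 0.95, and no call on the 8 genes changed. The exact permutation p of the ratios, with a smallest possible value of 0.25 under the block, was then 0.5 for Angpt2 to Angpt1 and 0.25 for Vegfc to Flt4. With 1 library left out the difference of the first ran from -0.76 to -0.18 and of the second from 0.45 to 0.87. The cause of these shifts was not tested. At this depth and spread, the typical standard error of 0.26 for the 8 genes limits what can be told apart, and Pgf, at 18 to 59 counts per library, is limited by counting too.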

Other observations

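Estimated counts need not be whole numbers. They were whole, to within 0.001, in 36 of 48 values of the 8 genes. Vegfb, Vegfc and Flt4 were whole in all 6 tumours, 3 of the 8 genes against 22.2% of all genes tested. Vegfa was not whole in any of the 6 tumours and Nrp1 in 3. The source of these fractions was not tested.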
